A study of Mus musculus with 18 samples.

Results

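The genes described here belong to the expression program of mature, migratory dendritic cells (DCs), and 9 were named at the outset: Fscn1, Ccl17, Ccl22, Il12b, Relb, Nfkb2, Marcksl1, Samsn1 and Cacnb3. A gene was taken where a probe of the array was annotated to its symbol alone. This held for 8 of the 9 genes, each with 1 probe, out of 22180 genes with such a probe; Cacnb3 was not analysed here. The genes were chosen by their measured values on these same arrays, as genes of this program that were higher in GFP-plus than in GFP-minus DCs. That contrast, and every difference that contains a DC array, is therefore given below as a description without a test, and tests on the 8 genes were run only among macrophages.

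The arrays were hybridised with RNA from 6 groups of small intestinal phagocytes of VDTR mice, in which epithelial cells of the gut carry a toxin receptor joined to green fluorescent protein (GFP). All groups, the GFP-minus ones included, came from male and female mice given diphtheria toxin by intraperitoneal injection (2 ng per kg) 4 hours before they were killed, and no untreated group was used here. The groups were GFP-plus and GFP-minus CD103 DCs (live CD45+ CD11c+ MHCII+ CD103+ CD24+), GFP-plus and GFP-minus macrophages gated on CD103, CD11b and CD64 (called CD103 macrophages below), and GFP-plus and GFP-minus macrophages gated on CD11b and CD64 (called CD11b macrophages below), with 3 arrays each. A phagocyte that is GFP-plus carries material of epithelial cells; the age of the mice, the meaning of an "n value" of 4 in the labels and whether the 3 arrays of a group came from separate mice are not stated in the labels, so p-values measure the spread between these samples, which may be technical.

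A DC that has taken up material in the gut can mature and leave through lymph for the draining lymph node. Maturing DCs remodel their actin cytoskeleton, switch on NF-kB, in particular the RelB and p52 pair of the alternative pathway, and make cytokines and chemokines that act on T cells. Ccl17 and Ccl22 encode chemokines for T cells that carry the receptor CCR4, Il12b encodes the p40 subunit shared by interleukins 12 and 23, Fscn1 encodes the actin-bundling protein fascin, and Marcksl1 encodes a membrane-bound relative of the actin regulator MARCKS. Relb encodes an NF-kB subunit and Nfkb2 its partner, made as the precursor p100 and processed to p52. Samsn1 encodes an adaptor with SH3 and SAM domains that dampens B cell activation.

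Values are log2 signals relative to the median of the same probe over the 18 arrays, so a value of 0 is the middle array for that gene and levels of different genes cannot be set against each other. The log base was inferred from the spread of the values, and folds rest on base 2. In bulk samples of this kind, more cells that express a gene and more RNA per cell cannot be told apart. Among the sort markers, Itgae, which encodes CD103, averaged 5.23 in GFP-plus and 5.46 in GFP-minus DCs. Fcgr1, which encodes CD64, averaged -4.82 in GFP-plus and -4.52 in GFP-minus DCs, so that both stood where the gates put them. Cd24a averaged 3.97 and 4.57 and Itgam, which encodes CD11b, -4.73 and -4.04, both lower on every GFP-plus than on every GFP-minus DC array. The DC means of Itgax, H2-Ab1 and Ptprc lay between -0.172 and 0.167, and Itgax averaged 0.708 in GFP-plus CD11b macrophages. In the macrophages gated on CD103, Itgae averaged -0.18 in GFP-plus and 1.89 in GFP-minus cells, so that CD103 RNA went with the gate in GFP-minus replicates 1 and 3 (3.44 and 2.66) but not in GFP-minus replicate 2 (-0.43) or in the GFP-plus arrays (-0.44, -0.15 and 0.049), which lay at the level of the CD11b macrophages. Comparisons that use the CD103 macrophages rest on these arrays. Without GFP-minus replicate 2 the Ccl17 difference given below was -2.00 in place of -1.70. Among the 6 groups, GFP-minus CD103 macrophages also had the highest mean of 13 T and innate lymphocyte markers (1.22 to 2.56). The part of such cells in the Itgae values was not tested. Among 13 measured DC markers, 8 lay higher on every GFP-minus DC array than on every GFP-minus CD11b macrophage array (Flt3 and Xcr1 among them), and 12 of 13 macrophage markers lay lower. Of all genes 8.44% lay higher and 10.4% lower in this way. The DC markers Zbtb46, Batf3, Irf4 and Dpp4 overlapped. Sirpa, also on the DC list, lay lower, with means of -4.35 in GFP-minus DCs and -0.13 in GFP-minus CD11b macrophages. The macrophage marker Cd163 overlapped. The arrays with the lowest estimated weights were GFP-plus CD103 macrophage replicate 1 (0.352), GFP-plus DC replicate 1 (0.414), GFP-minus CD103 macrophage replicate 2 (0.437) and GFP-minus CD11b macrophage replicate 1 (0.507).

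All 8 genes had their highest group mean in GFP-plus DCs, as did 21.3% of the 22180 genes. In 7 of the 8, each GFP-plus DC array lay above each GFP-minus DC array, which held for 8.66% of all genes (20.1% were apart in either direction), and Nfkb2 was the exception. In 5 genes (Ccl17, Ccl22, Il12b, Fscn1 and Samsn1) every GFP-plus DC array lay above all 15 arrays of the other groups, which held for 1.03% of all genes. Because the genes were chosen for this contrast, these shares describe the choice and were not tested.

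**Figure D1:**
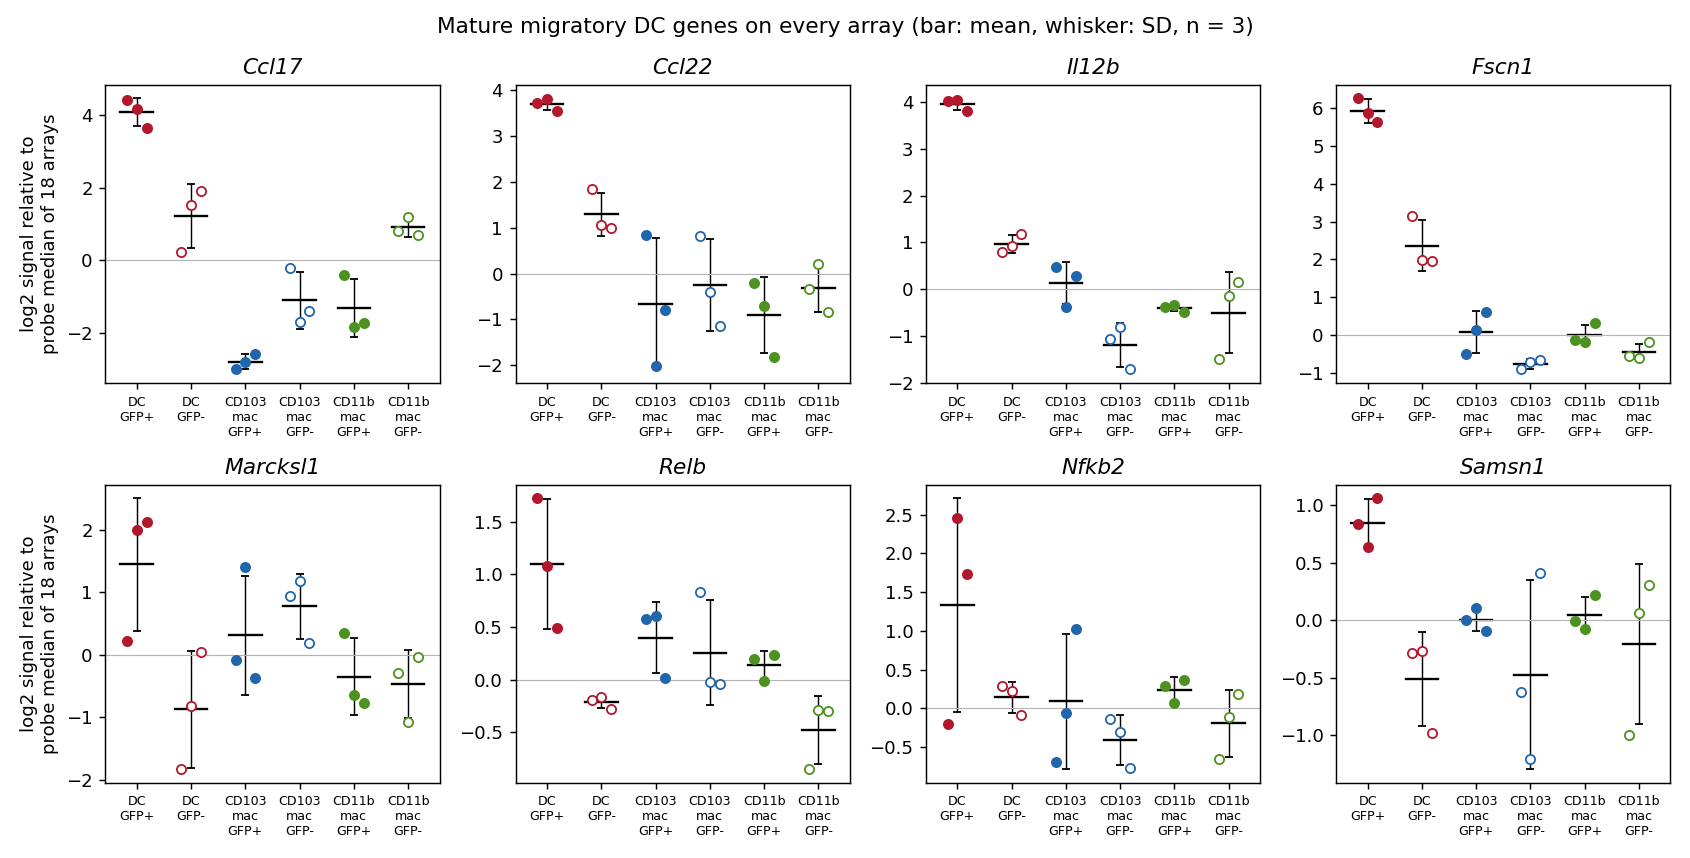
Values of the 8 genes on every array (y axis, log2 signal relative to the probe's median over the 18 arrays) in the 6 groups (x axis), with filled points for GFP-plus and open points for GFP-minus cells. Bars are means and whiskers SDs of 3 arrays; in Ccl17, Ccl22, Il12b, Fscn1 and Samsn1 the 3 GFP-plus DC arrays lie above the other 15.

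The chemokine gene Ccl17 read 4.41, 4.15 and 3.65 in GFP-plus DCs, against 0.22, 1.51 and 1.92 in GFP-minus DCs. The groups did not overlap, and their means of 4.07 ± 0.38 and 1.22 ± 0.89 (SD, n = 3 each) differed by 2.85, or 7.22-fold. Ccl22 read 3.72, 3.80 and 3.55 in GFP-plus DCs, against 1.83, 1.05 and 0.99 in GFP-minus DCs. Its GFP-plus arrays lay close together (SD 0.13, against 0.47 in GFP-minus DCs), and the means differed by 2.40, or 5.26-fold.

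In macrophages Ccl17 was on the other side. It read -3.01, -2.81 and -2.59 in GFP-plus CD103 macrophages, against -0.22, -1.71 and -1.39 in GFP-minus CD103 macrophages. It read -0.41, -1.83 and -1.74 in GFP-plus CD11b macrophages, against 0.82, 1.20 and 0.69 in GFP-minus CD11b macrophages. Ccl17 was lower on every GFP-plus than on every GFP-minus array in both macrophage populations, and its mean in GFP-minus CD11b macrophages (0.90 ± 0.26) lay close to that in GFP-minus DCs, with overlapping arrays. The difference was -1.70 ± 0.47 (SE) in CD103 macrophages, with a 95% interval of -2.71 to -0.68, and -2.23 ± 0.47 in CD11b macrophages, with an interval of -3.24 to -1.21. Neither passed after adjustment over all genes (limma, Benjamini-Hochberg adjusted p = 0.21 and 0.228; unadjusted p = 0.00295 and 0.000329). Ccl17 also averaged 1.74 log2 units less over both gates in CD103 than in CD11b macrophages (-1.74 ± 0.33, limma adjusted p = 0.107), and this difference passed without GFP-minus CD103 macrophage replicate 1, as 1 of 8 genes called.

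Markers of other cells moved with the GFP gate of macrophages. The mean of 8 monocyte markers ran from -0.41 to -0.0079 in GFP-plus and from 0.73 to 1.3 in GFP-minus CD103 macrophages, with 7 of 8 below 0 in the difference. In CD11b macrophages it ran from -0.73 to -0.11 in GFP-plus and from 0.82 to 1.22 in GFP-minus cells, again with 7 of 8 below 0. The mean of 13 T and innate lymphocyte markers ran from -0.28 to 0.61 in GFP-plus and from 1.22 to 2.56 in GFP-minus CD103 macrophages, with 11 of 13 below 0, while in CD11b macrophages it ran from -0.094 to -0.0046 in GFP-plus and from -0.36 to 0.098 in GFP-minus cells. In CD11b macrophages further sets were higher on every GFP-plus array. The mean of 13 DC markers ran from -0.083 to 0.0061 in GFP-plus and from -0.61 to -0.091 in GFP-minus cells (8 of 13 above 0 in the difference). The mean of 20 enterocyte markers ran from 0.11 to 0.47 in GFP-plus and from -0.47 to -0.25 in GFP-minus cells (12 of 20 above 0 in the difference, beside 51.9% of all genes). GFP-plus and GFP-minus means were 1.44 and -0.59 for Fabp1, 1.49 and -1.37 for Fabp2, 1.08 and -1.50 for Fabp6 and 1.28 and -0.78 for Rbp2. Those of Epcam were -0.13 and -0.089, and 8 of 20 markers lay below 0 in the difference. The mean of 13 macrophage markers ran from 0.38 to 0.45 in GFP-plus and from -0.050 to 0.11 in GFP-minus cells (11 of 13). That of 13 stromal and endothelial markers ran from 0.14 to 0.35 in GFP-plus and from -0.14 to -0.047 in GFP-minus cells (10 of 13). Above 0 in the GFP difference were 52.8% of all genes in CD103 macrophages and 51.9% in CD11b macrophages. With CD103, 1 T and innate lymphocyte marker passed, and without it 1 monocyte marker passed (limma). The shares of all genes that passed were 0.0541% and 0.0271%. The part of these marker sets in the Ccl17 values was not tested.

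Ccl22 overlapped between the gates of both macrophage populations. It read 0.83, -2.01 and -0.80 in GFP-plus CD103 macrophages, against 0.83, -0.41 and -1.15 in GFP-minus CD103 macrophages. It averaged -0.91 ± 0.83 in GFP-plus and -0.32 ± 0.51 in GFP-minus CD11b macrophages. The differences, -0.41 ± 0.64 and -0.59 ± 0.64 (SE), did not pass (limma adjusted p = 0.924 and 0.926), and their 95% intervals of -1.78 to 0.95 and -1.95 to 0.78 leave room for a change in either direction.

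Both chemokine genes lie side by side on mouse chromosome 8, with Cx3cl1 between them in the family's cluster. The 250 bases upstream of their RefSeq start sites are shown because both genes were high in GFP-plus DCs. Ccl17 is at chr8:94810203-94810452 and Ccl22 at chr8:94745434-94745683, both on the plus strand of GRCm38.p6, 5′ to 3′.
Ccl17: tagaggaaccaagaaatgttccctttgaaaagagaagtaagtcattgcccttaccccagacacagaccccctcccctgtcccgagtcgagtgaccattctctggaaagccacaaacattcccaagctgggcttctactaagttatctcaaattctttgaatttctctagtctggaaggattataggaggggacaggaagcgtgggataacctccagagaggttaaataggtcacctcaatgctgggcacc
Ccl22: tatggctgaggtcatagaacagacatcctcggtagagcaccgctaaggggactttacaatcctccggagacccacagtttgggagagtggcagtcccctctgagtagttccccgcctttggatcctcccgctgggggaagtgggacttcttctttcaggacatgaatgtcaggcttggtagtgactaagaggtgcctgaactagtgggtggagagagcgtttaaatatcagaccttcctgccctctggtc
Neither stretch held a match, on either strand, to the NF-kB consensus, to TATAAA, to the AP-1 core TGANTCA or to GAGGAAG, a core bound by the myeloid factor PU.1. Of the 32851 windows of this length in the table, 3.9% held the first, 12.4% the second, 6.75% the third and 10.6% the fourth. The GC content was 47.6% for Ccl17 and 53.6% for Ccl22, against a median of 52.4% over all windows. Cx3cl1 itself, which encodes fractalkine, read on average 0.14 ± 0.57 in GFP-plus and -0.048 ± 0.18 in GFP-minus DCs (SD, n = 3 each), a difference of 0.19 ± 0.30 (SE) that did not pass (limma adjusted p = 0.822). Ccr4, the gene of the receptor for both chemokines, differed by 0.0017 ± 0.14 (SE) in DCs (limma adjusted p = 0.997).

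The cytokine gene Il12b had the tightest GFP-plus DC arrays of the 8 genes. It read 4.02, 4.03 and 3.82 in GFP-plus DCs, against 0.80, 0.93 and 1.17 in GFP-minus DCs. The difference was 2.99, or 7.94-fold, many times the SDs of 0.12 and 0.19. In CD103 macrophages Il12b read 0.48, -0.37 and 0.29 in GFP-plus cells, against -1.06, -0.80 and -1.71 in GFP-minus cells. These groups did not overlap either. The difference of 1.32 ± 0.35 (SE, 95% interval 0.57 to 2.08) did not pass over all genes (limma adjusted p = 0.192, unadjusted p = 0.00205). In CD11b macrophages Il12b averaged -0.40 ± 0.070 in GFP-plus and -0.50 ± 0.87 in GFP-minus cells, and the groups overlapped. The GFP difference in CD103 macrophages minus that in CD11b macrophages was 1.23 ± 0.50 for Il12b, which had an unadjusted p of 0.0266 and an adjusted p of 1 in limma.

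The sequence upstream of Il12b is shown because its mean difference in DCs was second only to that of Fscn1 among the 8 genes. It lies at chr11:44399813-44400062 on the plus strand of GRCm38.p6.
Il12b: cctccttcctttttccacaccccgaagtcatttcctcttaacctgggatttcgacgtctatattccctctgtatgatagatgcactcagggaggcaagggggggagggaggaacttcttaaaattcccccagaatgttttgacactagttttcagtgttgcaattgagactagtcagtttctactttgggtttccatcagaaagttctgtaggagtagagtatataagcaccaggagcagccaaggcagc
It held no match to the motifs searched, and its GC content was 46.0%. The partner chains of p40 moved less than p40 in DCs. Il12a, which encodes the p35 chain of interleukin 12, averaged 0.62 ± 0.14 in GFP-plus and 0.082 ± 0.14 in GFP-minus DCs, a difference of 0.53 ± 0.16 (SE) whose arrays did not overlap and which did not pass (limma adjusted p = 0.108). Il23a, which encodes the p19 chain of interleukin 23, differed by 0.38 ± 0.14, also without overlap and without passing (limma adjusted p = 0.214).

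The cytoskeletal gene Fscn1 had the greatest mean difference between the gates of DCs among the 8 genes. It read 6.26, 5.88 and 5.65 in GFP-plus DCs, against 3.15, 1.99 and 1.97 in GFP-minus DCs. The difference of 3.56 equals 11.8-fold, and GFP-minus DCs themselves lay above all macrophage arrays, whose highest value was 0.60. Fscn1 averaged 0.078 ± 0.55 in GFP-plus and -0.77 ± 0.13 in GFP-minus CD103 macrophages, where, as in CD11b macrophages, every GFP-plus array lay above every GFP-minus array. The macrophage differences of 0.85 ± 0.32 with CD103 and 0.45 ± 0.32 without it (SE) did not pass (limma adjusted p = 0.399 and 0.881). GFP-plus DCs exceeded GFP-plus CD103 macrophages 57.7-fold and GFP-plus CD11b macrophages by 5.93 log2 units.

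The stretch upstream of Fscn1 is shown for its TATAAA match, in capitals, at -31 to -26 from the start site. It lies at chr5:142960105-142960354 on the plus strand of GRCm38.p6 and had a GC content of 62.4%.
Fscn1: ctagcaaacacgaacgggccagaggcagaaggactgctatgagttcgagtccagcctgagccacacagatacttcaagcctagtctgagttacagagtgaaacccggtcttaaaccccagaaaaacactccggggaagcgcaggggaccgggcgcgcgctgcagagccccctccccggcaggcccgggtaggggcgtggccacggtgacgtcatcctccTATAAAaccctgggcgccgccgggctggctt
No NF-kB consensus match lay in this window. The related bundling genes Fscn2 and Fscn3 had differences of 0.25 ± 0.23 and 0.23 ± 0.36 (SE) in DCs, with overlapping arrays and adjusted p-values of 0.654 and 0.818 in limma.

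Marcksl1 had another pattern. It read 0.22, 1.99 and 2.13 in GFP-plus DCs, against -1.83, -0.83 and 0.040 in GFP-minus DCs. The groups did not overlap, and the SDs of 1.06 and 0.94 were large beside the difference of 2.32. GFP-minus DCs had the lowest mean of the 6 groups and lay below every GFP-minus CD103 macrophage array, while GFP-plus DCs overlapped with GFP-plus cells of both macrophage populations. Marcksl1 averaged 0.96 ± 0.43 (SE) more in CD103 than in CD11b macrophages, which did not pass (limma adjusted p = 0.88). Marcks, its paralog, differed by 0.35 ± 0.24 between the gates of DCs, without overlap and without passing (limma adjusted p = 0.529).

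The NF-kB genes moved by smaller steps. Relb read 1.72, 1.08 and 0.49 in GFP-plus DCs, against -0.19, -0.16 and -0.28 in GFP-minus DCs. The difference was 1.31, or 2.47-fold, and the GFP-plus arrays spread far wider than the GFP-minus ones (SD 0.62 and 0.060). Relb averaged 0.40 ± 0.33 in GFP-plus and 0.26 ± 0.50 in GFP-minus CD103 macrophages, and 0.14 ± 0.13 in GFP-plus and -0.48 ± 0.32 in GFP-minus CD11b macrophages. The gates did not overlap in CD11b macrophages, but the difference there of 0.62 ± 0.30 (SE) did not pass (limma adjusted p = 0.818).

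Nfkb2 was the gene whose DC gates overlapped. It read -0.20, 2.46 and 1.73 in GFP-plus DCs, against 0.28, 0.23 and -0.085 in GFP-minus DCs. GFP-plus replicate 1 lay below all GFP-minus arrays and the other GFP-plus arrays lay far above them. The mean difference of 1.19 was 1.96 without that array and 0.62 without GFP-plus replicate 2. The same array was the lowest of its group for Marcksl1 and the highest for Ccl17, Fscn1 and Relb, so the 8 genes did not all rank the GFP-plus DC arrays alike. In macrophages the Nfkb2 differences were 0.50 ± 0.54 with CD103 and 0.44 ± 0.54 without it (limma adjusted p = 0.879 and 0.945).

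The window upstream of the first of 3 RefSeq start sites of Nfkb2 is shown because it held matches to the NF-kB consensus, given in capitals. It lies at chr19:46304487-46304736 on the plus strand of GRCm38.p6.
Nfkb2: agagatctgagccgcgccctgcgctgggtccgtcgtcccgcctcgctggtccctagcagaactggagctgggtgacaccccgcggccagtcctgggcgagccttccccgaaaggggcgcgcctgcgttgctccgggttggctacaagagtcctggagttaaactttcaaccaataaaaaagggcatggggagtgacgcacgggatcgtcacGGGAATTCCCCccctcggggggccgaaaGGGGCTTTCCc
The matches began at -39, -38 and -11, counted from the start site, and the first overlaps the next. The windows of the other start sites held 1 NF-kB match each, GGAATGTCCC beginning at -236 and GGGACTTTCC beginning at -225. Of the 8 genes, 7 had at least 1 window in the table and Nfkb2 alone had a match to the NF-kB consensus. The window with GGAATGTCCC also held TGANTCA beginning at -210. The Samsn1 window held GAGGAAG beginning at -50 and, on the other strand, at -29. The Marcksl1 window held no match to the motifs searched. A match says only that these letters stand there.

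Among the relatives of Relb and Nfkb2, Rel encodes the subunit c-Rel and Rela the subunit p65. Rel averaged 0.67 ± 0.20 in GFP-plus and -0.10 ± 0.14 in GFP-minus DCs, a difference of 0.77 ± 0.21 (SE) that did not pass (limma adjusted p = 0.0912). In CD103 macrophages Rel differed by 0.84 ± 0.21, also without overlap between the gates and without passing (limma adjusted p = 0.174). Rela differed by 0.61 ± 0.43 in DCs with overlapping arrays (limma adjusted p = 0.548).

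The adaptor gene Samsn1 read 0.84, 0.64 and 1.06 in GFP-plus DCs, against -0.28, -0.26 and -0.98 in GFP-minus DCs. The difference was 1.36, or 2.56-fold, with no overlap. GFP-minus DCs lay within the range of the GFP-minus macrophages for this gene, and GFP-plus DCs lay above all others. Its macrophage differences were 0.48 ± 0.37 and 0.26 ± 0.37 (SE; limma adjusted p = 0.795 and 0.955). The related gene Sash3 differed by 0.15 ± 0.39 in DCs, while Sash1 was low in both DC gates, with means of -3.14 in GFP-plus and -2.59 in GFP-minus DCs against 1.25 in GFP-plus and 0.60 in GFP-minus CD11b macrophages.

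**Figure D2:**
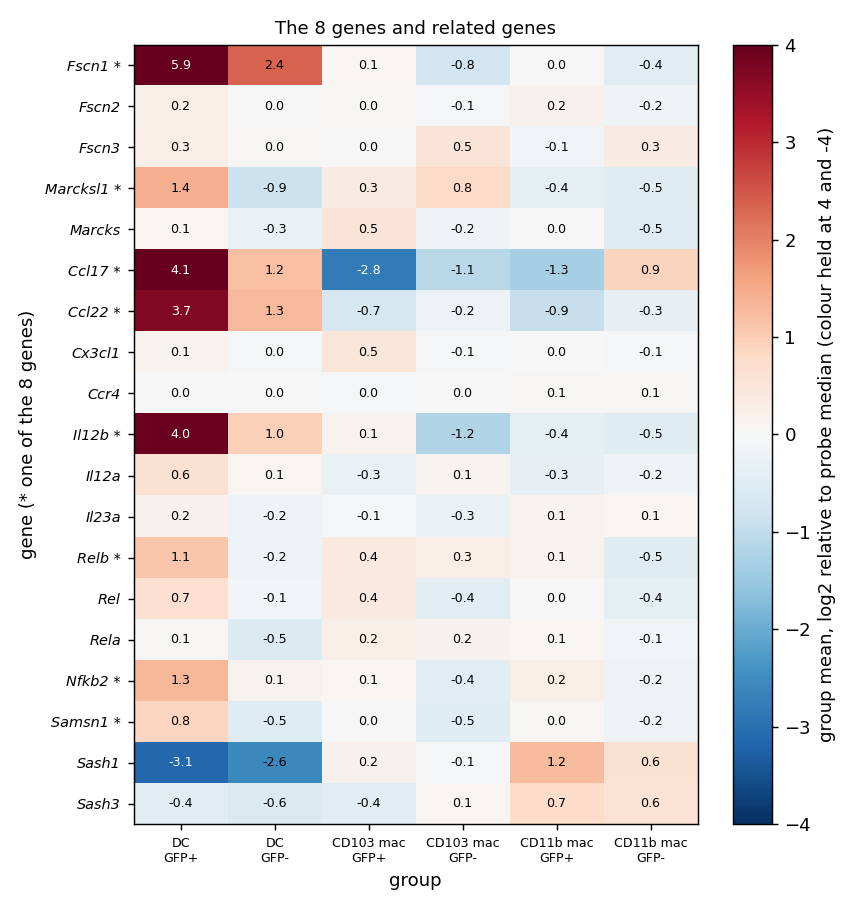
Group means (log2 relative to the probe median) of the 8 genes, marked with asterisks, and of related genes, chain partners and the receptor gene Ccr4, by group. Colours are held at 4 in either direction; Fscn1, Ccl17, Ccl22 and Il12b are highest in the GFP-plus DC column, with Fscn1 at 5.93, beside 2.37 in GFP-minus DCs.

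In GFP-minus cells the 8 genes differed in how DCs stood to macrophages. Fscn1, Ccl22 and Il12b lay higher on every GFP-minus DC array than on every GFP-minus macrophage array of either kind, which held for 4.68% of all genes. Their GFP-minus differences from CD103 macrophages were 3.13, 1.54 and 2.16, and those from CD11b macrophages 2.82, 1.61 and 1.47. Relb and Marcksl1 lay on the other side, with every GFP-minus DC array below every GFP-minus CD103 macrophage array (9.63% of all genes), at differences of -0.47 and -1.65. Ccl17 and Nfkb2 lay above CD103 macrophages and overlapped with CD11b macrophages, Relb lay above CD11b macrophages, and Samsn1 overlapped with both. In all, 5 of 8 genes lay above CD103 macrophages (9.31% of all genes), and 4 of 8 above and none below CD11b macrophages (8.44% and 10.4%). In GFP-plus cells 5 of 8 genes lay above CD103 macrophages on every array and none below (7.47% and 13.1% of all genes), and 6 of 8 above CD11b macrophages (11.4%, with 30.7% of all genes apart in either direction). These comparisons share DC arrays with the contrast that chose the genes and were not tested.

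None of the 8 genes passed for the GFP gate in CD103 macrophages (limma, Benjamini-Hochberg), where 0.0541% of all genes did; 3 of 8 (Ccl17, Il12b and Fscn1) had an unadjusted p under 0.05, as did 9.2% of all genes. None passed in CD11b macrophages, where 0.0271% of all genes did (0.0135% higher and 0.0135% lower), and Ccl17 alone had an unadjusted p under 0.05, as did 6.16% of all genes. The gates did not overlap in 3 of 8 genes in each population, with 2 higher and 1 lower in GFP-plus cells. Of all genes 7.54% were higher and 5.44% lower in this way in CD103 macrophages, and 9.63% and 6.24% in CD11b macrophages (15.9% in either direction). The median difference of the 8 genes was 0.31 with CD103 and 0.19 without it, beside 0.016 and 0.011 over all genes. None of the 8 passed between CD103 and CD11b macrophages (limma; 3 had an unadjusted p under 0.05, as did 5.51% of all genes, while 0.0721% of all genes passed, 0.0631% higher and 0.00902% lower), and none had a GFP difference that passed between these populations (1 had an unadjusted p under 0.05, and no gene of the 22180 passed, with 3.76% at an unadjusted p under 0.05 in either direction and 1.65% higher). With 3 arrays per group a p that misses the threshold does not show that the gates were alike.

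**Figure D3:**
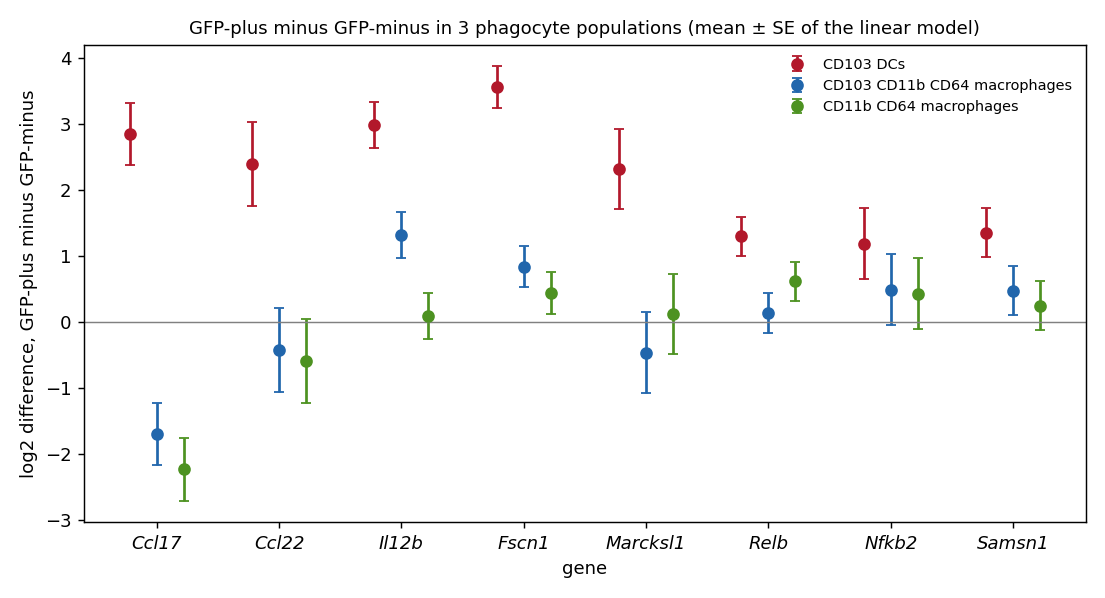
Log2 difference of GFP-plus minus GFP-minus cells (y axis) for each of the 8 genes (x axis) in CD103 DCs, CD103 CD11b CD64 macrophages and CD11b CD64 macrophages, with SEs of the linear model over 18 arrays. DC values run from 1.19 to 3.56, and Ccl17 lies at -1.70 and -2.23 in macrophages.

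Other genes known from DC maturation were taken from a list of 60, without the 8 genes above, of which 57 were measured. In GFP-plus DCs 45 of 57 (78.9%) lay above GFP-minus DCs, as did 47.1% of all genes, with a median difference of 0.55, beside -0.022 over all genes. Of the 57 genes 6 rose and none fell (limma, Benjamini-Hochberg adjusted p under 0.05), while 0.325% of all genes rose and 1.26% fell, 1.58% in all. An unadjusted p under 0.05 was reached by 21 genes, all higher (5.37% of all genes). Without GFP-minus DC replicate 2 the count that rose was 1, which was Cd63. The list was written with earlier results of these arrays known and is not independent evidence of its direction.

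Of the 6 genes that rose, 5 stayed below the highest macrophage mean in GFP-plus DCs. Cd63, a tetraspanin gene of late endosomes, read -0.67, -0.78 and -0.59 in GFP-plus DCs, against -3.53, -2.67 and -3.40 in GFP-minus DCs, a difference of 2.52 ± 0.18 (SE; limma adjusted p = 1.02e-05). Its GFP-plus DC mean was still below all 4 macrophage means, of which the lowest was -0.064. Anxa3, an annexin gene, rose by 2.31 ± 0.49, and Zmynd15 by 1.94 ± 0.43. Gadd45b, a stress-response gene, rose by 1.31 ± 0.25, and Cd274, which encodes PD-L1, by 1.64 ± 0.31 (limma adjusted p between 0.021 and 0.0421 for these 4). In these 5 genes GFP-minus DCs had the lowest mean of the 6 groups. Laptm4b, a gene of a lysosomal membrane protein, rose by 1.74 ± 0.32 (adjusted p = 0.0175) and, with a mean of 2.69 in GFP-plus DCs, stood above all macrophage means.

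Several surface molecules known from mature DCs did not pass. Ccr7, the receptor gene for travel to lymph nodes, read 0.42, 2.70 and 2.25 in GFP-plus DCs, against -1.59, 0.98 and 0.56 in GFP-minus DCs. These groups overlapped, at a difference of 1.81 ± 0.86 (SE; limma adjusted p = 0.337). Cd40 and Cd80, which encode costimulatory receptors and ligands, differed by 2.10 ± 0.56 and 1.585 ± 0.47, with no overlap between the gates and without passing (limma adjusted p = 0.081 and 0.114). Cd83 differed by 0.35 ± 0.16 and Cd86 by 0.12 ± 0.35 (limma adjusted p = 0.324 and 0.913). In CD103 macrophages Ccr7 differed by -2.71 ± 0.86, lower on every GFP-plus array, and did not pass (limma adjusted p = 0.284).

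**Figure D4:**
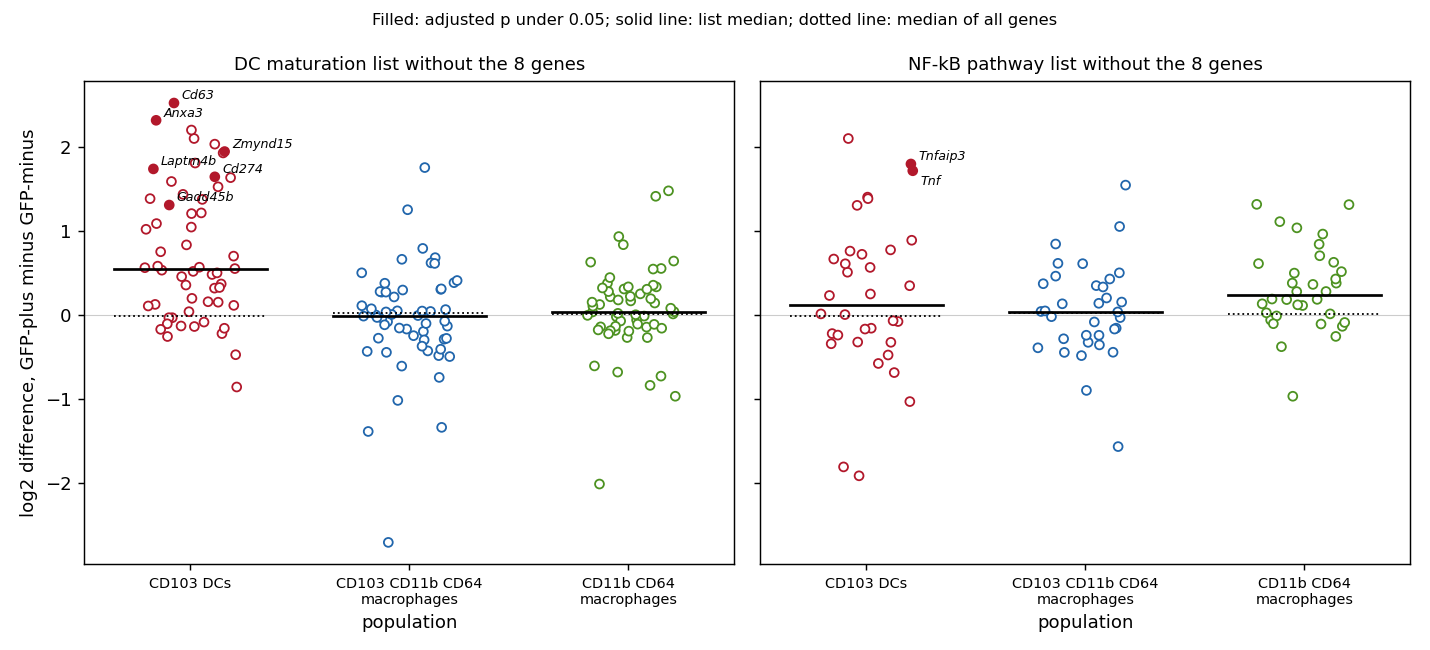
Log2 difference of GFP-plus minus GFP-minus cells (y axis) for the other genes of the DC maturation list (57 genes, left) and of the NF-kB list (34 genes, right) in the 3 populations. Filled points passed an adjusted p of 0.05, solid lines are list medians and dotted lines medians of all genes. The maturation list median is 0.55 in DCs, -0.018 in CD103 macrophages and 0.035 in CD11b macrophages. The NF-kB list median is 0.12, 0.034 and 0.23 in the same order.

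In macrophages none of the 57 maturation genes passed in either population (limma; 5 had an unadjusted p under 0.05 in each, 3 of them higher with CD103 and 4 without it, beside 5.41% and 4.36% of all genes higher), and 26 and 32 of them (45.6% and 56.1%) lay above 0 with CD103 and without it, beside 52.8% and 51.9% of all genes. Of the maturation genes that rose in DCs, Cd63 and Cd274 lay higher on every GFP-plus array in both macrophage populations. Their differences were 0.38 and 0.79 with CD103 and 0.62 and 0.83 without it. Laptm4b (1.41) and Gadd45b (0.35) did so in CD11b and Zmynd15 (0.61) in CD103 macrophages only. Anxa3 overlapped in both. Of all genes 7.54% lay higher in this way with CD103 and 9.63% without it. Of 34 measured genes of the NF-kB pathway, 2 rose and none fell in GFP-plus DCs, beside 0.325% and 1.26% of all genes. Tnf, which encodes tumour necrosis factor, rose by 1.71 ± 0.35, and Tnfaip3, which encodes the feedback inhibitor A20, by 1.79 ± 0.38 (limma adjusted p = 0.0308 and 0.0328). Both were lowest in GFP-minus DCs among the 6 groups, and neither passed without GFP-plus DC replicate 1 or without GFP-minus DC replicate 3. Of this list 19 of 34 genes (55.9%) lay above 0 in DCs, beside 47.1% of all genes, with a median of 0.12. Bcl3, a nuclear partner of p52, was at 1.40 ± 0.38 and did not pass (limma adjusted p = 0.0894). Cyld and Otulin, which encode deubiquitinases of the pathway, were at -1.92 ± 0.69 and -1.81 ± 0.58 and did not pass (limma adjusted p = 0.192 and 0.134). The NF-kB list was not shifted in DCs alone. In CD11b macrophages 25 of 34 genes (73.5%) lay above 0, beside 51.9% of all genes, with a median of 0.23. With CD103, 18 of 34 (52.9%) lay above 0, beside 52.8% of all genes, with a median of 0.034. No gene of the NF-kB list passed in either macrophage population (limma).

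Of 22 measured genes of T cell-directing cytokines and their receptors, none passed in DCs (limma; 7 had an unadjusted p under 0.05, 4 of them higher, beside 15.4% of all genes in either direction and 5.37% higher). Il1b was at -1.36 ± 0.43, Crlf2, a chain of the receptor for TSLP, at -1.75 ± 0.60 and Stat4, a signal transducer of interleukin 12, at 2.20 ± 0.71 (limma adjusted p between 0.135 and 0.166). Of 32 measured genes of actin remodelling and migration, 1 fell and none rose in DCs (limma), beside 1.26% and 0.325% of all genes. This was Cdc42, which fell by 0.57 on the log2 scale (limma adjusted p = 0.0302). It did not pass without GFP-plus replicate 1 or 3 or without GFP-minus replicate 2 or 3. The list median was -0.095, with 13 of 32 genes (40.6%) above 0, beside 47.1% of all genes. Rac2 and Was were at -1.13 ± 0.31 and -1.45 ± 0.58 and did not pass (limma adjusted p = 0.0902 and 0.244). In GFP-plus macrophages Lsp1, an actin-binding leukocyte protein gene, fell by 2.80 with CD103 and by 2.69 without it (limma adjusted p = 0.0216 and 0.0155). Coro1a fell by 1.55 with CD103 (limma adjusted p = 0.0439). The list thus had 2 of 32 genes lower with CD103 and 1 without it, beside 0.0271% and 0.0135% of all genes. Other genes of this list with the smallest p-values did not pass. In CD11b macrophages Rac1, a small GTPase gene, at 0.59 ± 0.18, Fmnl2, a formin gene, at 1.03 ± 0.35 and Wasf2, which encodes an activator of actin branching, at 0.80 ± 0.28 lay higher on every GFP-plus array (limma adjusted p between 0.532 and 0.648). In CD103 macrophages Marcks lay higher on every GFP-plus array, at 0.68 ± 0.24 (0.36). Ccr7 lay lower on every GFP-plus array there, at -2.71 ± 0.86 (0.284).

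The genes whose 6 group means were closest to the average of the 8 genes were named by the root-mean-square difference over the 6 means, each gene being centred first. The average itself was 2.44 in GFP-plus DCs, 0.20 in GFP-minus DCs and between -0.75 and -0.57 in the macrophage groups. The 10 closest were Strip2, Defa22, Lrrc32, Pi4k2b, Foxp4, Snora15, Procr, Grasp, Nudt17 and Suox, at 0.14 for Strip2 to 0.31 for Suox. The 8 genes themselves were at 0.54 for Ccl22 to 1.34 for Ccl17, so several genes outside the set were closer to its average than any gene in it. Defa22 encodes an antimicrobial peptide of Paneth cells and differed by 2.52 between the gates of DCs; probes of this gene family can also take up RNA of close copies.

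Epithelial markers moved with the DC gates too. The mean of 20 enterocyte markers ran from 0.42 to 0.63 in GFP-plus and from -0.21 to 0.032 in GFP-minus DCs, with 14 of 20 higher and Fabp6 the 1 that passed (limma). The mean of 15 secretory epithelium markers ran from 0.31 to 0.78 in GFP-plus and from -0.24 to -0.16 in GFP-minus DCs, with 10 of 15 higher and Defa24 the 1 that passed. Epcam and Vil1, defining epithelial genes, differed by -0.167 and 0.175 with overlapping arrays. T and innate lymphocyte markers moved the other way, with 12 of 13 lower in GFP-plus DCs, a mean of -0.43 to -0.034 in GFP-plus and of 0.26 to 0.94 in GFP-minus DCs, and 1 that passed. Macrophage markers were lower in GFP-plus DCs in 11 of 13 cases and 2 passed, monocyte markers in 6 of 8, and B and plasma cell markers in 8 of 9 with 1 that passed. Plasmacytoid DC markers were lower in 7 of 7, none of which passed (limma), with a mean of -0.88 to -0.48 in GFP-plus and of -0.28 to 0.26 in GFP-minus DCs. DC markers were lower in 8 of 13, with a mean of 1.46 to 1.60 in GFP-plus and of 1.67 to 1.78 in GFP-minus DCs. Stromal and endothelial markers were higher in 9 of 13, with a mean of -0.24 to -0.046 in GFP-plus and of -0.27 to -0.25 in GFP-minus DCs. No marker of the monocyte, DC or stromal and endothelial sets passed (limma). Of all genes 47.1% were above 0 in this difference. The part of these markers in the values of the 8 genes was not tested.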

How the data were processed

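Per the labels' protocols, 1 ng of RNA from sorted cells was amplified (WT Ovation Pico, NuGEN). The deposited log2 values cover 33793 probes on 18 arrays, each probe centred on its median (all within 5e-07 of 0). The base was inferred, and the labels do not state software or normalization. Absolute signal is lost by centring, so no filter on dim probes was possible, and the number of arrays limits the precision.

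Probes with 1 symbol (23521) were averaged into 22180 genes; 1814 probes with several symbols and 8458 with none were left out. In limma 3.58.1, all arrays entered a linear model of the 6 group means (R 4.3.3; 12 residual and 2.089 prior degrees of freedom), with two-sided p-values, Benjamini-Hochberg adjusted over all genes, at 0.05. The model was also run on simulated data with planted differences and equal noise on every array. The arrays here had unequal weights (0.352 to 2.52), so that run does not vouch for the calls. The genes and lists were chosen with earlier results of these data known. Named are the 8 genes, their paralogs and partners, sort markers, defining markers of other cells, the 10 genes of closest pattern and, per list, up to 10 genes a direction that passed in DCs, or else the 4 of smallest p, with the 4 of smallest p in a macrophage contrast where any passed. Ccr7 in DCs, Cd40, Cd80, Cd83, Cd86, Bcl3, Cyld, Otulin, Rac2 and Was are outside that rule and were chosen after their values were seen. The lists share some genes. Promoter sequences are from RefSeq (GRCm38.p6), matched by symbol.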

Additional observations from a re-analysis of the deposited data

Results flagged for a closer look

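The 8 genes, their relatives and the genes of the 4 lists were searched over every pair of populations. In 7 cases every GFP-plus array lay on 1 side of every GFP-minus array in 1 population and on the opposite side in another. Without regard to side, the gates were apart in 20.1% of all genes in DCs, 13% in CD103 macrophages and 15.9% in CD11b macrophages. The share of all genes on opposite sides in 2 populations was not counted, and none of these differences between populations was tested. For Ccl17 the GFP difference was 2.85 in DCs and -1.70 in CD103 macrophages, which differ by 4.55 log2 units, and -2.23 in CD11b macrophages, which differs from DCs by 5.08. For Il12a it was 0.53 in DCs and -0.38 in CD103 macrophages, a gap of 0.911. For Cdc42 it was -0.57 in DCs and 0.22 in CD103 macrophages, a gap of -0.793. For Cyld it was -1.92 in DCs and 1.03 in CD11b macrophages, a gap of -2.95. For Birc2, which encodes an inhibitor of apoptosis of the NF-kB list, it was -1.04 in DCs, 1.54 in CD103 macrophages and 1.31 in CD11b macrophages, gaps of -2.58 and -2.35 from DCs.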

How the results depend on the processing

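The GFP difference of each of the 8 genes in DCs kept its sign in all 9 alternatives run for it (quantile normalization, columns centred on their medians, each of the 6 DC arrays left out, and the 4 arrays of lowest weight left out, the last chosen after seeing the data). Nfkb2 ranged from 0.62 to 1.96 and Relb from 0.99 to 1.61 when single arrays were left out. In macrophages the sign turned in some of the 9 corresponding alternatives for 5 differences that had not passed: Ccl22 (-1.24 to 0.26, same sign in 7 of 9) and Relb (-0.091 to 0.43, 6 of 9) with CD103, and Il12b (-0.55 to 0.42, 6 of 9), Marcksl1 (-0.33 to 0.34, 6 of 9) and Samsn1 (-0.14 to 0.51, 7 of 9) without it. Ccl17 kept its sign in both macrophage populations, and was at -2.54 with CD103 and -3.22 without it after quantile normalization. The count of the 8 genes called in the GFP gates of macrophages stayed at 0 in every alternative, including array weights, robust moderation, single probes and fits of the populations compared; between CD103 and CD11b macrophages it ran from 0 to 1 with single arrays left out. The maturation count of 6 in DCs became 2 when DC arrays alone were fitted (Tmem123 and Cd63), 4 after quantile normalization, and 1 to 5 with single arrays left out, 1 being Cd63 without GFP-minus DC replicate 2. It was 7 without the 4 arrays of lowest weight. The NF-kB count of 2 became 1 after quantile normalization, 1 with array weights and 0 when DC arrays alone were fitted, and 0 to 3 with single arrays left out: 0 without GFP-plus replicate 1 or GFP-minus replicate 3, 1 without GFP-minus replicate 1 or 2, and 3 without GFP-plus replicate 3. The cytokine count of 0 became 1 without the 4 arrays of lowest weight and 0 to 1 with single arrays left out. The actin count of 1 became 0 after quantile normalization, in DC arrays alone, with single probes and without the 4 arrays of lowest weight, and 0 to 2 with single arrays left out. Over all genes, quantile normalization left 48 called in DCs in place of 351, and DC arrays alone 85. The cause was not tested. With the replicate number as a block (replicate block), the counts stayed at 6, 2, 0 and 1 for the 4 lists, and no call of the 8 genes changed. The numbers were not taken as pairs, since deviations from group means did not correlate above 0.1 in every same-numbered pair: they ran from -0.138 to 0.248 between gates of 1 population, and 13 of all 45 same-numbered pairs were over 0.1 (-0.172 to 0.337). As a hint from the data that some numbers may share a source, 11 of 18 arrays correlated best with an array of their own number. Each array was set only against the 3 arrays of the other gate in its population, so some of these matches can arise by accident.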
